A study of Mus musculus with 10 samples.

Results

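Iron handling in the liver was followed through 10 genes, chosen by name from the deposited counts, which list 24421 genes. They comprise the hepcidins Hamp and Hamp2, transferrin (Trf) and its receptors Tfrc and Tfr2, the ferritin chains Fth1 and Ftl1, the iron exporter ferroportin (Slc40a1), and the upstream regulators Bmp6 and Hfe. Hepatic poly(A) RNA was sequenced from 10 male C57BL/6 mice, 21 weeks old and fed ad libitum. Of these, 5 mice ate standard chow (Chow) and 5 ate chow mixed with TM5614 at 20 mg/kg/day for 10 days (TM5614). TM5614 is a small molecule taken by mouth that inhibits PAI-1, the main inhibitor of plasminogen activators. The mice were wild type, and each gave 1 library. The labels name no batch, hour of killing or litter.

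Hepcidin is a peptide hormone that hepatocytes secrete. It binds ferroportin on enterocytes, macrophages and hepatocytes and has it degraded, which holds iron inside those cells. Its gene is switched on by bone morphogenetic proteins through SMAD transcription factors, and by interleukin 6 through STAT3. Ferritins, ferroportin and the transferrin receptor Tfrc are also controlled after transcription, by iron regulatory proteins that bind a hairpin in the mRNA.

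Total counts ran from 6398335 to 10874955 per library, and 11092 genes passed the filter on low counts. TM5614 was compared with Chow in edgeR's quasi-likelihood test, with p-values adjusted by the Benjamini-Hochberg method over those genes and a threshold of 0.05. Levels are given as CPM, the counts of a gene after scaling for library size with TMM factors. Of all genes tested, 499 changed, 192 of them higher and 307 lower in TM5614. Fgf21, a liver hormone used as a check of the comparison, rose (log2 fold change 3.04, edgeR adjusted p = 0.000136). The paper reports it as the transcript most raised in these same mice, so the check covers group labels and direction alone. Chow replicate 2 had a mean correlation of 0.927 with its group across genes, against 0.965 to 0.970 for the other Chow libraries. TM5614 replicate 2 had 0.971, against 0.982 in the other TM5614 libraries, and held 3411 CPM of 8 skeletal muscle markers. These summed to between 0.736 and 1.45 CPM in Chow, and in TM5614 replicates 3, 4 and 5, at 53.8, 4.80 and 2.98 CPM, they lay above every Chow library, with replicate 1 inside the Chow range. The 8 hepatocyte markers summed to 128651 to 147734 CPM in Chow and 118911 to 136434 CPM in TM5614. In edgeR 0 of the 8 passed, and DESeq2 and limma-voom each called 1, Ttr, lower. In whole liver RNA, fewer cells of a type and less RNA per cell cannot be told apart.

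Hamp was higher in TM5614, and no other of the 10 genes passed the threshold. The 10 genes were all tested, and 1 of 10 was called (10.0%) where 4.50% of all tested genes were. In the higher direction 1 of 10 was called against 1.73% of all genes, and in the lower direction 0 of 10 against 2.77%. By DESeq2, 2 members were called, 1 higher and 1 lower, where it called 8.16% of all genes (3.06% higher, 5.10% lower). By limma-voom 3 were called, 1 higher and 2 lower, where it called 12.5% (5.25% higher, 7.25% lower). In edgeR 5 of the 10 had an unadjusted p under 0.05. The share of all tested genes at that level was not counted, so such counts, here and below, have no background. The estimates were higher in TM5614 for 4 genes and lower for 6, with a median log2 fold change of -0.29 beside 0.01 over all tested genes. In 2 of the 10, Hamp and Hfe, the groups did not overlap in CPM, as in 8.93% of all tested genes.

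**Figure D1:**
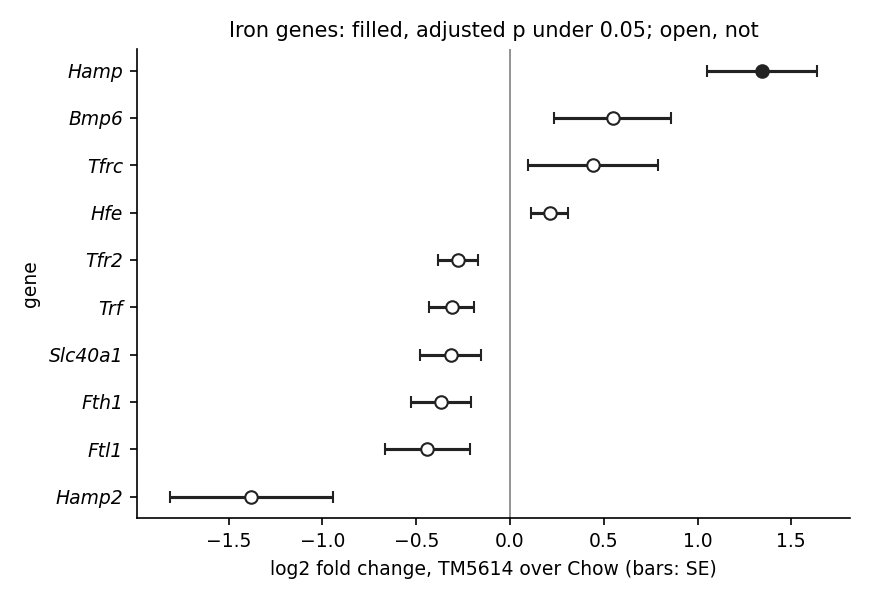
Log2 fold change of TM5614 over Chow (horizontal axis) for the 10 iron genes, with bars for the standard error; n = 5 libraries per group. The filled point is Hamp, the gene past the threshold at 1.35, and Hamp2 at -1.38 lies at the other end with an open point.

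Hamp encodes hepcidin and lies on chromosome 7, 30942368 to 30944032, minus strand (GRCm38, the mm10 assembly). Hamp2 is a duplicate of it whose peptide is not established as an iron regulator, and lies nearby at 30922372 to 30924681 on the same strand. A lincRNA, Gm44662, is annotated across both genes on the opposite strand, and the use of strand in counting is not given in the sources used here. Searched on both strands, its transcripts held 5.23% of the 75-base stretches of the Hamp2 transcript and none of those of Hamp. The promoters of the hepcidins are shown because sites for both inputs to hepcidin are known there. Bases further upstream were not searched. Whether the letters bear on the levels of either gene was not tested. Each sequence covers the 200 bases before the RefSeq start (GRCm38.p6, minus strand), at chr7:30944030-30944229 for Hamp and chr7:30924182-30924381 for Hamp2. Capitals mark GGCGCC, the core of the BMP-responsive element known from hepcidin promoters, and TTCTTGGAA, the known STAT3 site.
Hamp: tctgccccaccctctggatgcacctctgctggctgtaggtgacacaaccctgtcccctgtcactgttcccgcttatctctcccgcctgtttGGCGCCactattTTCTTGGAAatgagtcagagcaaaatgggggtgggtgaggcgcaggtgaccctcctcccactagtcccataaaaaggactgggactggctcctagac
Hamp2: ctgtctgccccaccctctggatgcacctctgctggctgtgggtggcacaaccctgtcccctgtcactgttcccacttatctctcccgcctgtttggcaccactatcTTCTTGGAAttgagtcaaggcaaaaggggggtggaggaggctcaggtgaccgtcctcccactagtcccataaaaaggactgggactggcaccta

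Over the 300 bases that RefSeq gives for each start, 276 aligned bases were identical and 21 differed, an identity of 92.9% outside 6 gap positions. GGCGCC stood at positions 92 to 97 of the printed Hamp sequence, counted from 1 at its 5′ end, 109 bases before the start. The aligned letters in Hamp2 were GGCACC, which is the substitution G95A. TTCTTGGAA stood at positions 104 to 112 of Hamp and was also present in Hamp2. Searched on both strands in 32851 mouse promoters of the same length, GGCGCC was found in 11.9% and TTCNNNGAA in 8.30%. Of the 8 members with a promoter entry, GGCGCC was found in Hamp and Tfrc, and TTCNNNGAA in Hamp and Hamp2. The SMAD box GTCTG was found in 5 of these members and in 49.6% of promoters. The E-box CANNTG was found in 5 and 72.3%, and TGACG, the core of the CREB site, in 3 and 20.8%. A member was counted if any of its promoter entries held the match, and Tfr2, Tfrc and Fth1 had more than 1 entry. The percentages count single entries, so members and percentages are not like for like. The GGCGCC and TTCTTGGAA matches do not overlap each other. These are matches of letters and no binding was measured.

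In the Chow livers Hamp stood at 209.8, 426, 352, 421 and 146 CPM in replicates 1 to 5. In the TM5614 livers it stood at 799, 1200.5, 682, 630.2 and 639 CPM. The lowest TM5614 liver was above the highest Chow liver, and TM5614 replicate 2 was the highest of the 10. The means were 311 ± 127 CPM (SD, n = 5) in Chow and 789.9 ± 239 CPM (SD, n = 5) in TM5614. Hamp rose 2.54-fold (log2 fold change 1.35, SE 0.29, edgeR adjusted p = 0.0231, unadjusted p = 0.000609). Between 1586 and 9251 reads per library lay behind these values. Hamp was higher in every fit. It stayed past the threshold in each of the 9 other settings that kept the libraries or left out both replicates 2 (adjusted p 0.000247 to 0.0273, log2 fold change 1.28 to 1.61). With 4 mice in an arm it was no longer past the threshold without Chow replicate 1 (adjusted p = 0.0533), Chow replicate 3 (0.0521), or TM5614 replicate 1 (0.0515), 2 (0.0515) or 3 (0.0505), with log2 fold changes from 1.14 to 1.48 over the 10 libraries left out.

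Hamp2 stood at 21.2, 16.8, 9.19, 29.6 and 8.004 CPM in Chow and at 7.47, 13.4, 4.01, 3.43 and 4.31 CPM in TM5614. Its 5 TM5614 values lay below the Chow median, and 4 lay below every Chow value, with TM5614 replicate 2 inside the Chow range. The means were 16.97 ± 8.94 CPM (SD, n = 5) and 6.52 ± 4.14 CPM (SD, n = 5), and the libraries held between 30 and 187 reads. On the log2 scale the difference was -1.38 (SE 0.43), with an adjusted p of 0.102 in edgeR, and did not pass. It was past the threshold in DESeq2 (-1.39, adjusted p = 0.0238), in limma-voom with sample quality weights (-1.40, adjusted p = 0.0353), without TM5614 replicate 2 (-1.82, adjusted p = 0.0339) and without both replicates 2 (-1.81, adjusted p = 0.0150). Whether Hamp2 passed thus depended on the fit, and its estimate was below 0 in each of them, from -1.82 to -1.10.

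**Figure D2:**
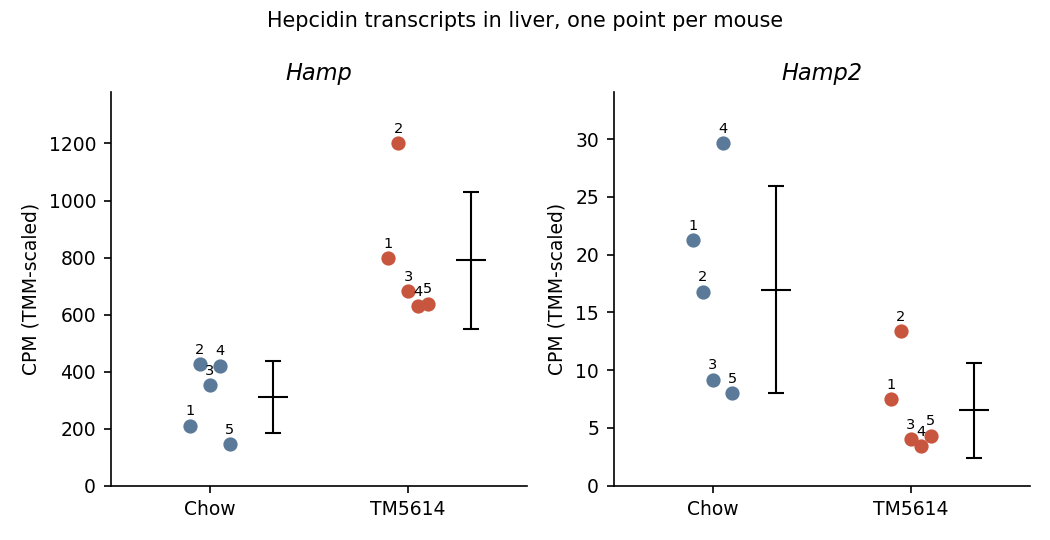
CPM of Hamp (left) and Hamp2 (right) in each liver, numbered by replicate, with the mean and SD (n = 5) beside the points. The Hamp values of TM5614, from 630.2 to 1200.5 CPM, lie above the Chow values, and the Hamp2 values of the groups overlap through TM5614 replicate 2 at 13.4 CPM.

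The share of Hamp2 among the reads of both hepcidins compares the genes within a library and does not depend on library scaling. In Chow replicate 1 it was 9.19% (95% Wilson interval 7.97 to 10.6), and in replicates 2 to 5 it was 3.79%, 2.55%, 6.57% and 5.20%. In TM5614 it was 0.926%, 1.10% (0.909 to 1.33), 0.585%, 0.541% and 0.670%. The lowest Chow share, 2.55% (2.07 to 3.13), lay above the highest TM5614 share, and the intervals, which cover counting error only, did not meet. The mean shares were 5.46 ± 2.57% (SD, n = 5) and 0.765 ± 0.240% (SD, n = 5). Of the 75-base stretches of the Hamp transcript 3.87% were identical to Hamp2, and 8.82% of those of Hamp2 were found in another gene. The TM5614 libraries held 5515 to 9251 Hamp reads beside 30 to 103 Hamp2 reads. A small share of Hamp reads could thus weigh on the Hamp2 count. The handling of such reads is not given, so the level and share of Hamp2 depend on how they were counted. Summed over both genes, hepcidin reads ran from 154 to 451 CPM in Chow and from 634 to 1214 CPM in TM5614, so the sum followed Hamp.

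**Figure D3:**
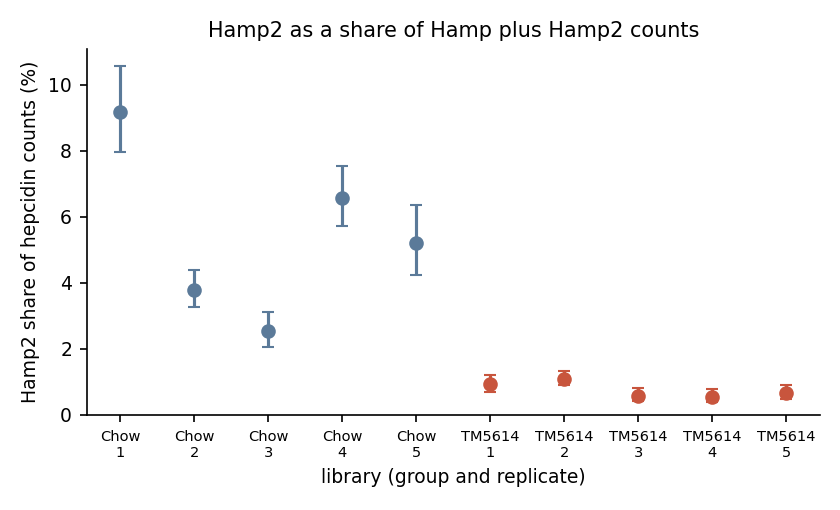
Hamp2 reads as a percentage of Hamp plus Hamp2 reads in each library, with 95% Wilson intervals for counting error. The Chow shares run from 2.55% to 9.19% and the TM5614 shares from 0.541% to 1.10%.

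Bmp6 encodes the bone morphogenetic protein that liver endothelial cells release as iron rises (chromosome 13, 38345107 to 38500302, plus strand). It stood at 1.70, 1.54, 1.67, 2.38 and 3.13 CPM in Chow and at 2.01, 2.73, 5.39, 2.40 and 2.67 CPM in TM5614. The groups overlapped, and TM5614 replicate 3 stood apart at 5.39 CPM. On 14 to 47 reads per library, the lowest depth among the 10 genes, the difference did not pass the threshold (log2 fold change 0.55, SE 0.31, edgeR adjusted p = 0.345). The 10 markers of liver endothelium summed to 128 to 217 CPM in Chow and 130 to 224 CPM in TM5614, and 0 of the 10 passed in edgeR, DESeq2 or limma-voom (1 with an unadjusted p under 0.05 in each).

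Hfe encodes an HLA class I-like protein that binds transferrin receptors and takes part in iron sensing (chromosome 13, 23702034 to 23710854, minus strand). It stood at 41.4, 44.4, 44.4, 43.7 and 38.5 CPM in Chow and at 44.5, 51.0, 53.8, 51.9 and 44.4 CPM in TM5614. The groups did not overlap, but the lowest TM5614 liver (44.44 CPM) lay just above the highest Chow liver (44.37 CPM). The estimate of 15.7% (log2 fold change 0.21, SE 0.10, edgeR adjusted p = 0.260) did not pass the threshold here or in any of the 19 other fits.

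Tfr2, the transferrin receptor through which hepatocytes sense iron-loaded transferrin, lies on chromosome 5, 137569840 to 137587481, plus strand. Its Chow values were 395, 500.0, 487, 439.8 and 402 CPM and its TM5614 values 405, 340.4, 352, 385 and 354 CPM. In TM5614 4 of 5 livers lay below every Chow liver, and replicate 1 lay inside the Chow range. The difference (log2 fold change -0.28, SE 0.10, edgeR adjusted p = 0.167) did not pass the threshold in any fit. It was -0.12 with an offset for GC content and gene length.

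The other genes of the BMP-SMAD route were counted as a list of 19 genes, of which 17 were tested. Of these 17, 3 rose and 0 fell in edgeR, where 1.73% of all tested genes rose. DESeq2 called 4 of the 19 listed higher and 0 lower, against 3.06% of all genes higher. The median log2 fold change of the list was 0.21. The 3 were Id3, Smad7 and Atoh8, which are themselves switched on by SMAD signalling. Atoh8 encodes a helix-loop-helix transcription factor, and stood at 13.3, 19.9, 14.8, 11.9 and 13.98 CPM in Chow and at 35.6, 32.2, 28.9, 29.6 and 31.6 CPM in TM5614. The groups did not overlap, and the rise (log2 fold change 1.09, SE 0.14, edgeR adjusted p = 0.00141) kept its call in all 19 other fits. Smad7, an inhibitory SMAD that feeds back on the route, rose from 8.74 ± 3.43 to 17.4 ± 3.32 CPM (SD, n = 5 each; log2 fold change 1.00, SE 0.24, edgeR adjusted p = 0.0402). Id3, an inhibitor of DNA binding, rose from 12.5 ± 5.52 to 36.3 ± 19.2 CPM (SD, n = 5 each; log2 fold change 1.52, SE 0.39, edgeR adjusted p = 0.0478). For Smad7 the groups overlapped, with TM5614 replicate 4 at 12.7 CPM below Chow replicate 3 at 14.2 CPM. The other 4 TM5614 livers lay above every Chow liver. The calls of Smad7 and Id3 were each lost in 9 of the 19 other fits, 8 of them with 1 library left out and 1 with no filter on low counts. Id3 was highest in TM5614 replicate 2, at 64.8 CPM, and its 12.9 CPM in TM5614 replicate 5 lay inside the Chow range of 7.61 to 20.4 CPM. Its log2 fold change was 1.20 without TM5614 replicate 2 (adjusted p = 0.107) and 1.44 without both replicates 2 (adjusted p = 0.0142). The 8 markers of stellate cells summed to 229 to 413 CPM in Chow and to 357 to 608 CPM in TM5614, highest in TM5614 replicate 2. Of the 8, 6 had higher estimates and none was at 0 in all libraries. In edgeR and DESeq2 0 of the 8 passed (2 and 1 at an unadjusted p under 0.05), and limma-voom called 1 higher, Dcn. The part of the muscle and stellate markers in the Id3 values was not tested.

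Id1, the SMAD target most used as a readout of hepatic BMP signalling, had 4.77 ± 3.19 CPM in Chow and 13.9 ± 7.99 CPM in TM5614 (SD, n = 5 each). This difference did not pass in edgeR and passed in 3 of the 19 other fits, DESeq2 among them (log2 fold change 1.51, SE 0.43, edgeR adjusted p = 0.0759). Id1 too was highest in TM5614 replicate 2, at 27.1 CPM, and its estimate was 1.11 without that library. TM5614 replicates 3, 4 and 5, at 8.60, 9.48 and 8.42 CPM, lay below Chow replicate 3 at 10.2 CPM. The other 2 TM5614 livers lay above every Chow liver. Smad6, the other inhibitory SMAD, was at 5.04 ± 0.831 and 4.80 ± 0.742 CPM (SD, n = 5 each; log2 fold change -0.08, edgeR adjusted p = 0.824). Tmprss6 is a protease that restrains the route and the gene of this list with the most reads. It stood at 419 ± 86.6 CPM in Chow and 327 ± 27.2 CPM in TM5614 (SD, n = 5 each). The difference did not pass the threshold (log2 fold change -0.36, SE 0.14, edgeR adjusted p = 0.171). The groups did not overlap, with the lowest Chow liver at 366 CPM and the highest TM5614 liver at 359 CPM.

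Genes of the interleukin 6 and STAT3 route were the other input to hepcidin examined. Of 8 listed, 8 were tested and 0 passed in edgeR, DESeq2 or limma-voom (1, 2 and 4 with an unadjusted p under 0.05), with a median log2 fold change of 0.12. Creb3l3, a liver transcription factor that acts on Hamp and on acute-phase genes and had the most reads of the list, stood at 334 ± 38.5 and 368 ± 32.8 CPM (SD, n = 5 each; edgeR adjusted p = 0.480). The acute-phase genes, whose proteins the liver secretes in inflammation, share this input. Of the 15 tested 7 fell and 0 rose in edgeR, where 2.77% of all tested genes fell. DESeq2 called 9 of the 16 listed lower and limma-voom 9 of the 15 tested, both with 0 higher. Of all genes 5.10% and 7.25% were called lower. The median log2 fold change of the list was -0.37.

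Among these 7 the serum amyloid genes had the lowest estimates. Saa1 stood at 43.7, 327, 105, 866 and 144 CPM in Chow and at 11.1, 27.8, 27.9, 15.1 and 11.8 CPM in TM5614 (log2 fold change -3.99, SE 0.72, edgeR adjusted p = 0.00825). Saa2 fell too (log2 fold change -4.75, SE 0.92, edgeR adjusted p = 0.0124). The groups did not overlap in either, and Chow replicate 4 was the highest of the Chow livers in both. Without that library the log2 fold changes were -3.06 for Saa1 (adjusted p = 0.00966) and -3.28 for Saa2 (adjusted p = 0.00835). Saa1 and Saa2 are near-identical copies, so their split of reads is uncertain. The orosomucoids Orm1 (-1.03, edgeR adjusted p = 0.00241) and Orm2 (-2.65, edgeR adjusted p = 0.000340) also fell. So did lipocalin 2 (Lcn2), which binds bacterial siderophores that carry iron (-1.29, edgeR adjusted p = 0.0429; lost in 9 of the 19 other fits). Serum amyloid P (Apcs, -0.85, edgeR adjusted p = 0.00733) and the inter-alpha-trypsin inhibitor heavy chain Itih4 (-0.66, edgeR adjusted p = 0.00858) completed the 7. Fibrinogen alpha (Fga), the gene of the list with the most reads, had 4506 ± 498 and 4310.0 ± 324 CPM (SD, n = 5 each; log2 fold change -0.06, edgeR adjusted p = 0.754).

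**Figure D4:**
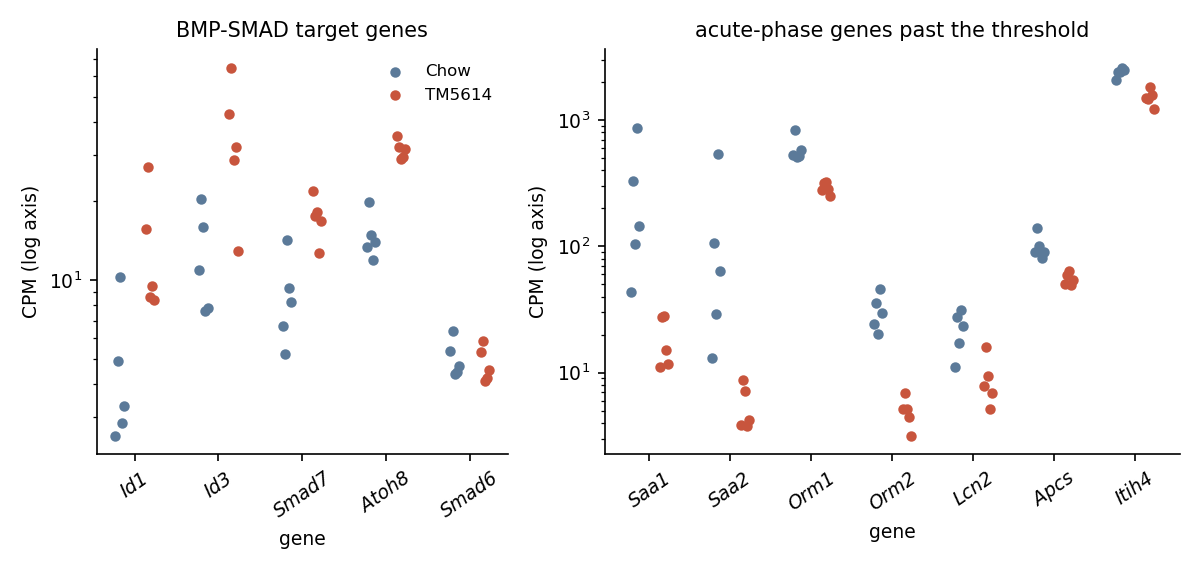
CPM on a log axis in each liver for 5 SMAD target genes (left) and the 7 acute-phase genes past the threshold (right); points are libraries, 5 per group. Atoh8 runs from 11.9 to 19.9 CPM in Chow and from 28.9 to 35.6 CPM in TM5614, while Saa1 runs from 43.7 to 866 CPM in Chow and from 11.1 to 27.9 CPM in TM5614.

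Transferrin, which carries iron in plasma, is encoded by Trf on chromosome 9, 103204001 to 103230444, minus strand. Its level was 14544, 21682, 16953, 17243 and 16438 CPM in Chow and 14618, 14024, 12534, 15047 and 13801 CPM in TM5614. In TM5614 3 of 5 livers lay below every Chow liver, and Chow replicate 2 was the highest of the 10. The difference did not pass (log2 fold change -0.31, SE 0.12, edgeR adjusted p = 0.169), and its estimate was -0.23 without Chow replicate 2. Of the 75-base stretches of the Trf transcript 78.6% also lie in Gm20425, an annotated transcript overlapping the Trf locus that the count table does not list.

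Tfrc, the receptor that brings transferrin iron into most cells (chromosome 16, 32608920 to 32632794, plus strand), ranged widely within each group. It stood at 19.0, 7.43, 32.7, 28.7 and 38.1 CPM in Chow and at 22.3, 29.98, 40.4, 45.5 and 32.6 CPM in TM5614. The groups overlapped and Chow replicate 2 was the lowest. A difference between the groups did not pass the threshold (log2 fold change 0.44, SE 0.35, edgeR adjusted p = 0.488), and the estimate was 0.20 without Chow replicate 2.

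The hairpins that iron regulatory proteins bind are shown because they tie Tfrc, the ferritins and ferroportin to cell iron by a route that mRNA counts measure only in part. They were searched as a C, any 5 letters and then CAGTG in untranslated regions of GENCODE M21 transcripts, with 5 base pairs closing the loop. Capitals mark the bulged C and the 6 loop letters CAGTGN.
Fth1, 5′ UTR, exon 1, chr19:9982732-9982761, plus strand: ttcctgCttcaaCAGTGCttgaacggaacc
Ftl1, 5′ UTR, exon 1, chr7:45459778-45459807, minus strand: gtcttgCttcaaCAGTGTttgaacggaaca
Slc40a1, 5′ UTR, exon 1, chr1:45925464-45925493, minus strand: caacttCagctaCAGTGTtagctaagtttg
Tfrc, 3′ UTR, exon 19, chr16:32631219-32631248, plus strand: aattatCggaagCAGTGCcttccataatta

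Tfrc held 4 such matches in its 3′ UTR, the printed one and 3 more in the same exon. Fth1, Ftl1 and Slc40a1 held theirs in the 5′ UTR, where a bound protein blocks translation, whereas in the 3′ UTR it shields the mRNA from decay. The other 6 members held none by this search. Loop and stem together were found in the 5′ UTR of 31 of 20916 genes (0.148%) and in the 3′ UTR of 129 of 21039 genes (0.613%). Of the iron regulatory proteins and the protein that degrades one of them (Aco1, Ireb2 and Fbxl5), 0 of 3 passed in edgeR and DESeq2, each with 0 at an unadjusted p under 0.05. Aco1, the one with the most reads, had 219.9 ± 36.8 and 186 ± 8.96 CPM (SD, n = 5 each; log2 fold change -0.24, edgeR adjusted p = 0.305) and was called lower by limma-voom and without both replicates 2.

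Fth1 and Ftl1 encode the heavy and light chains of ferritin, the shell that stores iron, on chromosome 19, 9980598 to 9985098, plus strand, and chromosome 7, 45457944 to 45459884, minus strand. Fth1 stood at 1818, 2763, 1538, 1818 and 1541 CPM in Chow and at 1445, 1680.2, 1311, 1558 and 1355 CPM in TM5614. Ftl1 stood at 1538, 3882, 1961, 2620.3 and 1789.7 CPM in Chow and at 1727, 2183, 1589, 1662 and 1521 CPM in TM5614. In both genes Chow replicate 2 lay far above the other livers and the groups overlapped. Neither passed the threshold, Fth1 with -0.37 on the log2 scale (SE 0.16, edgeR adjusted p = 0.228) and Ftl1 with -0.44 (SE 0.23, edgeR adjusted p = 0.297). Without Chow replicate 2 both were -0.20, and with the offset for GC content and gene length that of Ftl1 was -0.07. The ratio of Fth1 to Ftl1 per transcript length was 0.544 ± 0.128 in Chow and 0.547 ± 0.0413 in TM5614 (SD, n = 5 each), a difference of 0.00334 that changed sign with the library left out. Of the 75-base stretches of Ftl1, 84.8% also lie in other annotated genes, chiefly the retrogene Ftl1-ps1, which has no row in the counts, so the level of Ftl1 depends on how such reads were counted. For Fth1 the share was 2.32%.

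Slc40a1 encodes ferroportin, the exporter that hepcidin acts on (chromosome 1, 45908068 to 45926523, minus strand). It stood at 134, 105, 182, 182 and 156 CPM in Chow and at 100.4, 134, 131, 135 and 108 CPM in TM5614. The groups overlapped, with Chow replicate 2 lowest of the Chow livers. The edgeR estimate did not pass (log2 fold change -0.32, SE 0.16, adjusted p = 0.292). It was past the threshold in limma-voom (-0.46, adjusted p = 0.0202), with the offset for GC content and gene length (-0.50, adjusted p = 0.0284), without Chow replicate 2 (-0.43, adjusted p = 0.0391) and without both replicates 2 (-0.46, adjusted p = 0.0322). Kupffer cells, the liver macrophages, also express Slc40a1 and the ferritins. The estimates of all 12 Kupffer cell markers were lower in TM5614 (median log2 fold change -0.45), and 0 of 12 passed in edgeR, DESeq2 or limma-voom, also at an unadjusted p under 0.05. They summed to 86.2 to 276 CPM in Chow and 86.5 to 183 CPM in TM5614, none was at 0 in all libraries, and Chow replicate 2 held the highest sum. Their part in the Slc40a1 and ferritin values was not tested.

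Red cell markers were read beside these genes as well, since blood carries iron and haem. Of the 8 markers in the table, the 4 globin genes were listed at 0 in every library. The 8 summed to 44.6 to 98.2 CPM in Chow and 36.8 to 58.8 CPM in TM5614, most of it Alas2, and 0 of the 2 tested passed in edgeR (1 at an unadjusted p under 0.05). DESeq2 and limma-voom each called 1, Klf1, lower. Their part in the values was not tested.

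Chow replicate 2 was at an end of its group in 9 of the 10 genes, highest in 6 and lowest in 3. Without it and TM5614 replicate 2 together, 3 of the 10 genes were called, Hamp higher (log2 fold change 1.28, adjusted p = 0.00838) and Hamp2 and Slc40a1 lower, while 1230 genes were called in all.

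Levels were set in order across genes per transcript length, as the mean of the deposited FPKM, which divides counts by gene length and a library factor, over the 10 libraries. The order was Trf (6640.0), Ftl1 (2082), Hamp (1376), Fth1 (1099), Tfr2 (104), Slc40a1 (39.9), Hamp2 (26.5), Hfe (26.2), Tfrc (5.96) and Bmp6 (1.05), a span of 6335-fold. Trf was above Ftl1 in all 10 libraries, Fth1 above Tfr2, Tfr2 above Slc40a1, Hfe above Tfrc and Tfrc above Bmp6. Among the next genes Slc40a1 lay above Hamp2 in 7 of the 10 libraries and Hamp2 above Hfe in 4. In TM5614 Hamp2 had 14.6 ± 9.13 FPKM, beside 35.5 ± 4.66 for Slc40a1 and 28.1 ± 2.46 for Hfe, and its range reached theirs through replicate 2, at 29.7 FPKM. In Chow the range of Hamp2, 18.1 to 66.7 FPKM, took in those of both. Hamp ranked 4 of the 10 in Chow at 779.6 ± 318 FPKM, its range overlapping that of Fth1. In TM5614 it ranked 2 at 1972 ± 576 FPKM, above Fth1 in each library and overlapping Ftl1 (SD, n = 5 each).

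**Figure D5:**
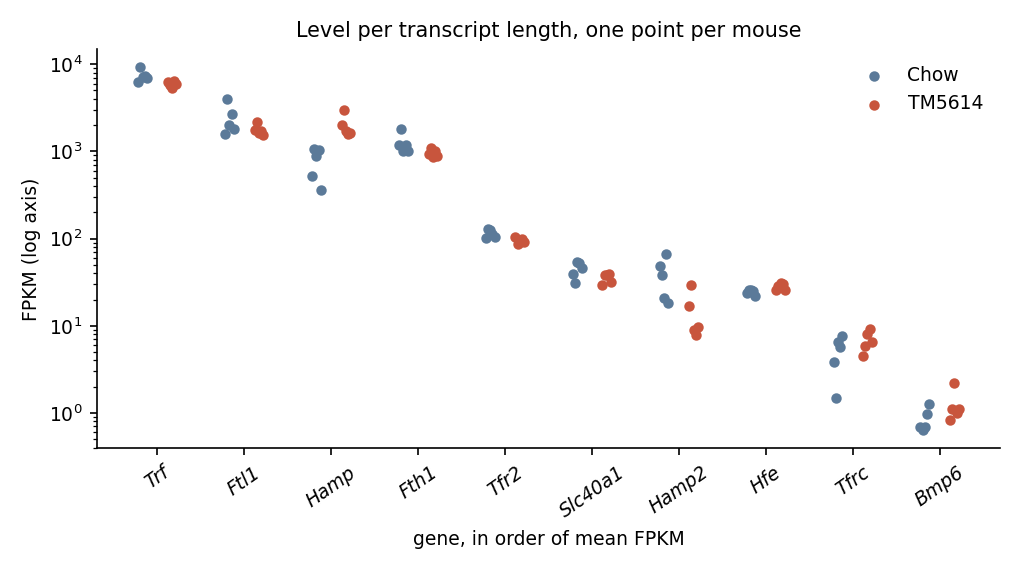
FPKM on a log axis of the 10 iron genes in each liver, ordered by mean FPKM, with Chow and TM5614 points side by side. Hamp moves from rank 4, at a mean of 779.6 FPKM in Chow, to rank 2, at 1972 FPKM in TM5614.

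Other genes that move iron were tested as whole lists. Of the 14 tested genes of iron uptake, export and storage, 0 passed in edgeR (2 at an unadjusted p under 0.05), with a median log2 fold change of 0.14. DESeq2 and limma-voom each called 1, Mcoln1, a lysosomal cation channel, lower. Ceruloplasmin (Cp), the plasma ferroxidase with the most reads of the list, had 1228 ± 219 and 1309.7 ± 121 CPM (SD, n = 5 each; log2 fold change 0.09, edgeR adjusted p = 0.721). Of the 11 genes of haem iron, 0 passed in edgeR and DESeq2 (3 and 4 at an unadjusted p under 0.05), with a median of -0.27. Limma-voom called 1 higher, Mfsd7b, the haem exporter also named Flvcr1. Haptoglobin (Hp), which binds free haemoglobin and had the most reads of the list, had 4322 ± 1031 and 3259 ± 193 CPM (SD, n = 5 each; log2 fold change -0.41, edgeR adjusted p = 0.1503).

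Of 19 genes of mitochondrial iron and iron-sulphur clusters, 2 fell and 0 rose, also in DESeq2 and limma-voom, where 2.77%, 5.10% and 7.25% of all genes fell, with a median log2 fold change of -0.18. Slc25a37, mitoferrin 1, which carries iron into mitochondria, fell from 38.8 ± 6.34 to 24.6 ± 2.78 CPM (SD, n = 5 each; log2 fold change -0.66, SE 0.13, edgeR adjusted p = 0.0161). Its groups did not overlap, and the call was lost in 1 of the 19 other fits, without TM5614 replicate 3 (adjusted p = 0.0600). Fdx1, a ferredoxin that passes electrons on, fell from 79.1 ± 10.8 to 57.2 ± 5.56 CPM (SD, n = 5 each; log2 fold change -0.47, SE 0.12, edgeR adjusted p = 0.0466), a call lost in 9 of the 19 other fits. Glrx5, a glutaredoxin of cluster assembly and the gene of the list with the most reads, had 99.2 ± 49.1 and 69.5 ± 7.18 CPM (SD, n = 5 each; edgeR adjusted p = 0.265), with Chow replicate 2 at 186 CPM. Over the 7 lists, 12 of 87 tested genes were called in edgeR, beside 4.50% of all tested genes.

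The genes whose log2 CPM followed that of Hamp most closely over the 10 libraries were Agxt (Pearson r = 0.944), Sqstm1 (0.938), Litaf (0.923), Pttg1ip (0.908) and Mapkapk2 (0.904). These values describe the libraries and include the difference between the groups. With the group means taken out they were 0.908, 0.838, 0.850, 0.771 and 0.669. Among the iron genes Hfe was closest to Hamp over all libraries (0.796). With the group means taken out Ftl1 was closest (0.778), followed by Hamp2 (0.643), Fth1 (0.563) and Hfe (0.516). Replicate 2 was the highest library of both groups for Hamp, Ftl1 and Fth1, and of TM5614 for Hamp2. These correlations were not computed without it. Over all 10 libraries Hamp2 had -0.307, so the sign of the relation between the hepcidins over all mice was not that within the groups.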

How the data were processed

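Liver poly(A) RNA was sequenced by the authors as 75-base single-end reads, aligned with STAR to mm10 and analysed with DESeq2 in the RNA Express application. The sample labels also name HOMER as a processing tool, without a version. Which tool counted the reads, the annotation, the use of strand and the versions were not established here. The authors deposited raw counts per gene symbol and FPKM values, which equalled counts over a fixed length and 1 factor per library. Their regularised log values and table of fold changes and p-values were not used.

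Groups came from the sample titles. Counts were tested with edgeR 4.0.16 (filterByExpr, TMM, quasi-likelihood, two-sided) in R 4.3.3. Alternatives were DESeq2 1.42.0, limma-voom (limma 3.58.1), other scalings and filters, a replicate block, an offset for GC content and length, and each library left out. Leaving out both replicates 2 was chosen after seeing the data. Tests were checked on simulated data, where edgeR and limma-voom kept within the bound on false calls first set for every tool and DESeq2 exceeded it. The bound was then applied to edgeR, the main test, alone. The 10 genes and all lists were chosen with earlier results of these data known. Named genes were the 10, those called in a list, its gene with the most reads, the 5 most like Hamp and Fgf21. Others were named after their values were seen. No 2 libraries of a group were alike within sampling noise (lowest chi-square per degree of freedom 7.99). Coordinates are from GENCODE M21 and promoters from RefSeq. Wilson intervals cover counting error alone and leave out the spread between mice. Reads here carry no molecular identifiers, so the intervals may be too narrow even for counting error.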

Additional observations from a re-analysis of the deposited data

Results flagged for a closer look

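Of 24 groups of 5 libraries examined, 2 held a library far from the others of its group, where chance gives about 1 in 20 groups, or 1.2 here. Fth1, the heavy chain of ferritin, stood at 2763 CPM in Chow replicate 2 and between 1538 and 1818 CPM in the other Chow livers. Bmp6 stood at 5.39 CPM in TM5614 replicate 3 and between 2.01 and 2.73 CPM in the other TM5614 livers, on 47 reads at most in any library.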

How the results depend on the processing

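Of 190 values of the 10 genes under other settings, 177 kept their direction and their side of the threshold, 5 lost the call, 8 gained one and 0 reversed. The 5 lost were Hamp with 1 library left out, and the 8 gained were 4 of Hamp2 and 4 of Slc40a1. Iron genes called numbered 2 in DESeq2, 3 in limma-voom, 2 with the offset for GC content and length, 3 without both replicates 2, and 0 to 2 with 1 library left out. Genes called over all numbered 907 in DESeq2, 1386 in limma-voom and 722 with the offset for GC content and length. They numbered 1230 without both replicates 2, and 235 (without TM5614 replicate 3) to 1031 (without Chow replicate 2) with 1 library left out. Among the latter were 293 (Chow replicate 3 left out), 331 (TM5614 replicate 1) and 259 (TM5614 replicate 4). List genes called ran from 7 (without TM5614 replicate 3) to 15 with 1 library left out. The difference in the ratio of Fth1 to Ftl1 ran from -0.0212 to 0.0572, and in the share of Hamp2 from -5.42 to -3.76 percentage points. The cause was not tested. With the replicate number as a block, 555 genes, 1 iron gene (Hamp, adjusted p = 0.0108) and 12 list genes were called. Samples of the same number had correlations of 0.0316 to 0.318, and 1 of 5 correlated best with its own number. This was replicate 2, the pair also left out together. The samples were taken to share a number alone, but 5 pairs are too few to exclude a shared litter, day or batch. The paper describes the controls as littermates. Depth limits Bmp6 and Hamp2 most, at 14 and 30 reads in their lowest libraries.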
